A study of Mus with 8 samples.

Results

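The genes described are 7 factors that brown fat is known to release: Nrg4, Fgf21, Bmp8b, Gdf15, Il6, Slit2 and Metrnl. They were chosen by name, and 6 of the 7 had a probe set annotated with that gene alone, among 30142 genes compared. No probe set was annotated with Gdf15, so its level was not analysed here. Each of the 6 was represented by its single probe set.

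Brown fat burns fatty acids to make heat and also signals to other cells through secreted proteins. Neuregulin 4 (Nrg4) acts on the liver and on nerves through ErbB receptors, and FGF21 acts through FGFR1 with the co-receptor β-Klotho. BMP8b belongs to the TGF-β superfamily and is known to raise the response of brown adipocytes to noradrenaline. IL-6 and GDF15 are stress-responsive cytokines, SLIT2 is a ligand of Roundabout receptors with a cleaved fragment that induces thermogenic genes, and meteorin-like (Metrnl) is a cold- and exercise-induced factor of fat and muscle.

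RNA came from interscapular brown adipose tissue of C57BL/6 mice, 4 labelled HILPDA KO and 4 wild type, with 1 array per mouse. Hilpda encodes a lipid droplet protein that inhibits adipose triglyceride lipase. Which cells lack the gene, how old the mice were and how they were housed or treated is stated in none of the sources. Values are log2 RMA expression values, and differences are the mean of the arrays labelled KO minus that of wild type. The arrays are of separate mice with no technical replicates, per the labels. KO and wild type below mean the arrays so labelled.

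Replicates 1 and 2 of both groups (set 1) and replicates 3 and 4 of both groups (set 2) had different distributions. The median of all genes was 3.93 to 3.99 in set 1 and 4.93 to 4.98 in set 2, so levels are compared only within a set. Hilpda read 4.45 and 4.37 in KO, against 4.37 and 4.28 in wild type of set 1, then 5.60 and 5.51 in KO, against 6.00 and 5.92 in wild type of set 2. Its groups overlapped in set 1 and parted in set 2, where the difference was -0.40 (limma adjusted p = 0.144). Which part of the transcript the probe set reads and which part is deleted is not stated, so this is a limited check of the labels. The Y-linked gene Uty read 9.31 to 10.93 and Xist 3.49 to 4.10, a male pattern on all 8 arrays, although the mice are labelled female. The brown fat marker Ucp1 stood near the top of the scale at 19.68 to 19.93, and all 15 measured adipocyte markers were above background in both sets.

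Signal over background was judged against 1083 olfactory receptor genes, which are mostly silent outside the nose. Their 95th percentile was 3.81 to 3.97 on the arrays of set 1 and 4.75 to 4.87 on those of set 2, and 50.9% of all genes lay above it in both sets. Of the 6 factors, Nrg4 lay far above this line on every array, and Metrnl lay near it. The other 4, Fgf21, Bmp8b, Il6 and Slit2, lay below it on all 8 arrays.

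**Figure D1:**
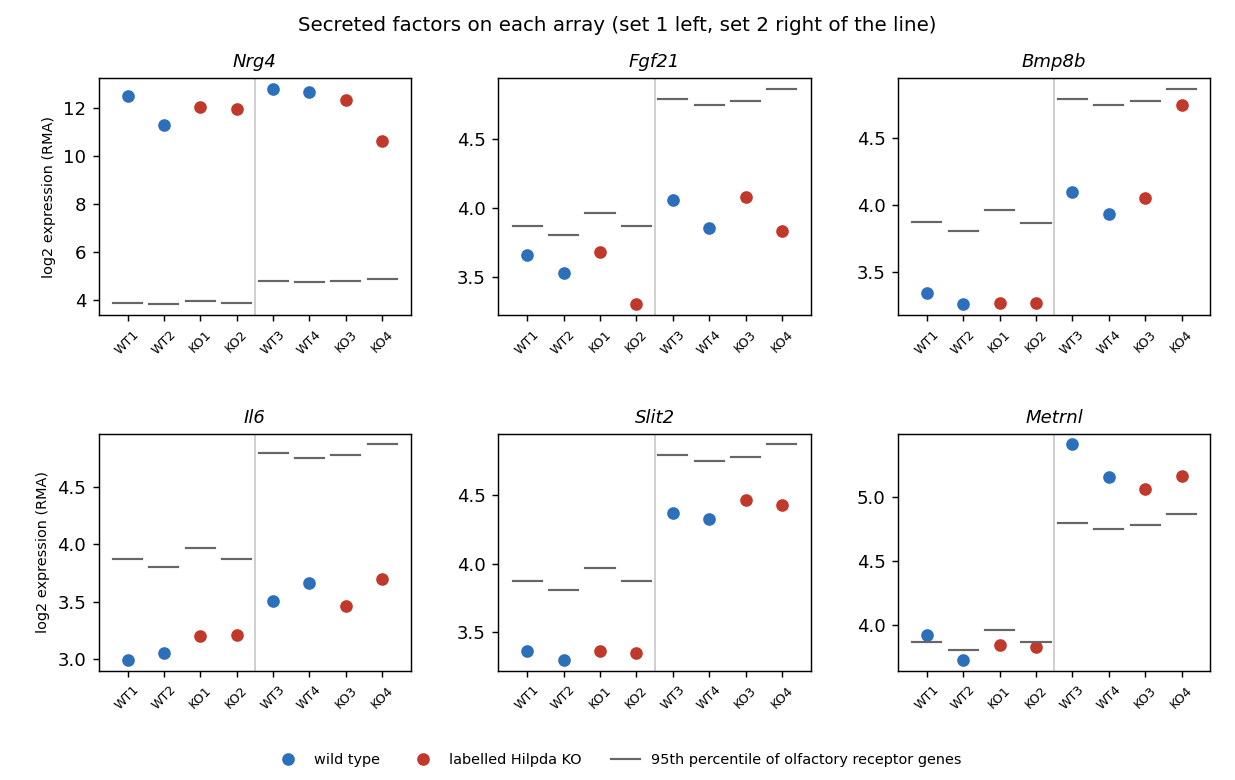
Log2 expression of the 6 measured factors on each of the 8 arrays, with wild type in blue and arrays labelled Hilpda KO in red; the short grey lines mark the 95th percentile of olfactory receptor genes on that array. Nrg4 stands at 10.66 to 12.82, Metrnl crosses the line, and Fgf21, Bmp8b, Il6 and Slit2 stay under it.

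Nrg4, the ErbB ligand secreted by brown adipocytes, was the one factor with a strong signal in this tissue. In set 1 it read 12.06 and 11.98 in KO, against 12.53 and 11.31 in wild type. In set 2 it read 12.35 and 10.66 in KO, against 12.82 and 12.68 in wild type. The groups overlapped in set 1, where the KO values lay between the wild type values, and did not overlap in set 2, where KO replicate 4 was the lowest of its set. The groups parted in set 2 in 43.1% of all genes, and with KO lower in 19.1%, so this pattern is common in these arrays.

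The Nrg4 difference was 0.10 (SE 0.57) within set 1 and -1.25 (SE 0.57) within set 2, a wild type level 2.38-fold that of KO, with a limma adjusted p = 0.368. With the set as a block it was -0.57 (SE 0.46, 95% interval -1.64 to 0.49, limma adjusted p = 0.987). The exact two-sided permutation of labels within the sets gave p = 0.444 over 36 arrangements, of which the smallest possible p is 0.0556. The differences in the sets differed by -1.35 (SE 0.81, limma adjusted p = 0.519). Without KO replicate 4 the difference with the set as a block was -0.10, and without wild type replicate 2 it was -0.95, so its size turned on single arrays. The interval includes a fall of more than 1 on the log2 scale as well as no change.

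KO replicate 4, which had the lowest Nrg4 of set 2, was also the lowest of that set for 8 of the 15 measured adipocyte markers. The share of all genes lowest on that array was not counted, so this count is not read as a result about the markers. The mean of 16 skeletal muscle markers was 10.52 in KO replicate 4 and 5.55 in KO replicate 3, against 10.90 and 9.11 in wild type of set 2. The mean of 15 adipocyte markers was 14.95 in KO replicate 4, against 15.36 in KO replicate 3 and 15.08 and 15.26 in wild type. Among them Plin1, the main lipid droplet coat protein of adipocytes, read 13.63 there and 14.97 to 16.43 on the other arrays of set 2, and Elovl3, a fatty acid elongase of brown fat, read 15.63 against 17.39 to 17.56. Without Plin1 and Elovl3 the mean of the other 13 adipocyte markers in KO replicate 4 lay between wild type means of 14.79 and 15.03. Since Plin1 and Elovl3 were low there, leaving them out raised that mean relative to the other arrays by construction. It is therefore not read as a result about adipocyte content. In bulk tissue, adipocyte number and RNA per adipocyte cannot be told apart, and a fall in either was not tested. Skeletal muscle markers were lowest in KO replicate 3, and in KO replicate 4 their mean lay between those of wild type. The part of these markers in the Nrg4 values was not tested.

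**Figure D2:**
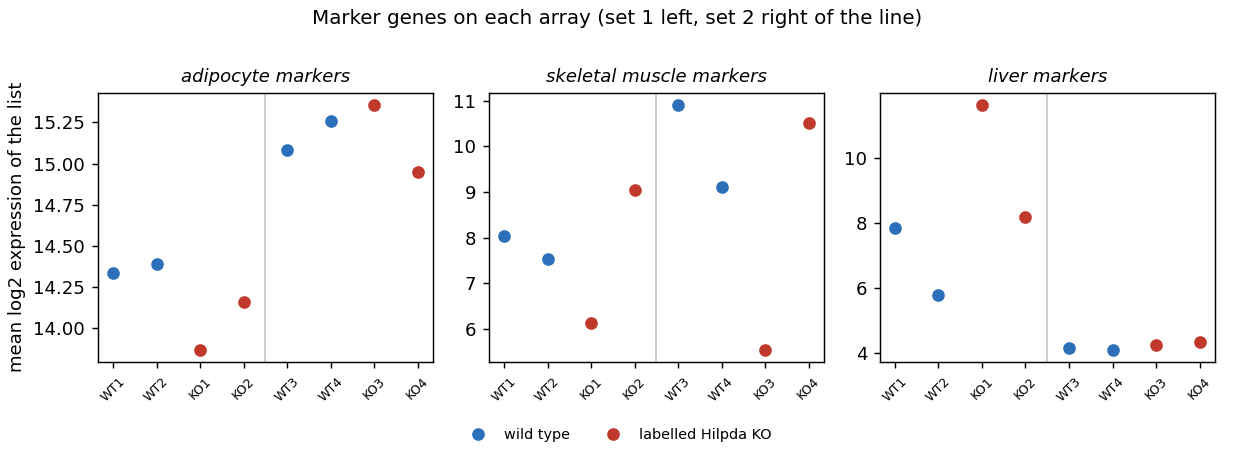
Mean log2 expression of adipocyte, skeletal muscle and liver marker genes on each array, with wild type in blue and arrays labelled Hilpda KO in red. Muscle markers are low in KO replicates 1 and 3, and liver markers are high in set 1, from 5.78 in wild type replicate 2 to 11.62 in KO replicate 1, and 4.10 to 4.35 in set 2.

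The 3 genes whose values, centred on each set, followed Nrg4 most closely over the 8 arrays were Krt79 (Pearson r = 0.985), Plin5 (r = 0.979) and Mgl2 (r = 0.972), out of 15340 candidates above background. Plin5, a lipid droplet coat protein of oxidative tissues, read 12.31 and 12.62 in KO, against 12.92 and 12.03 in wild type of set 1, then 13.11 and 11.84 in KO, against 13.71 and 13.45 in wild type of set 2. It shared with Nrg4 the low values of wild type replicate 2 and KO replicate 4. Krt79, a keratin, differed by -1.03 within set 2, and Mgl2, a lectin of macrophages and dendritic cells, by -0.24. These correlations are descriptions over 8 arrays, picked as the highest of many, and the low value of KO replicate 4 weighs heavily in them.

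**Figure D3:**
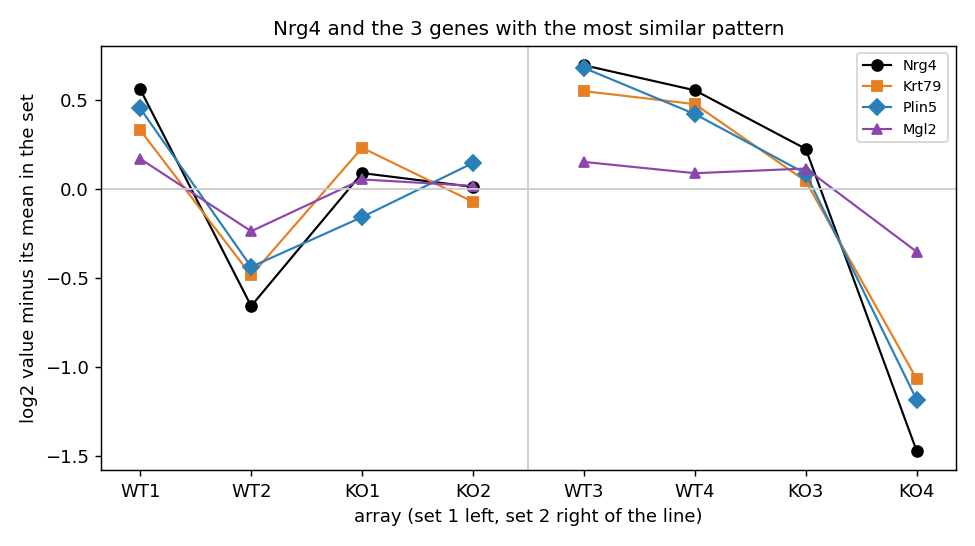
Log2 values of Nrg4, Krt79, Plin5 and Mgl2 on each array, each with its mean in the set subtracted. All 4 genes are lowest in wild type replicate 2 within set 1 and in KO replicate 4 within set 2.

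Metrnl was near background and differed little between genotypes. It read 3.85 and 3.83 in KO, against 3.93 and 3.73 in wild type of set 1, and 5.06 and 5.16 in KO, against 5.41 and 5.15 in wild type of set 2. It was above the olfactory receptor line on 5 arrays, all 4 of set 2 and wild type replicate 1, and the groups overlapped in both sets. The difference with the set as a block was -0.08 (SE 0.09, 95% interval -0.29 to 0.13, limma adjusted p = 0.999). It was 0.01 within set 1 and -0.17 within set 2. Array values this close to background understate a difference. Its nearest genes in pattern were Rdh14 (r = 0.967), Lrrfip1 (r = 0.966) and Coro1a (r = 0.965), the last encoding an actin-binding protein of white blood cells.

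Fgf21, the fasting- and cold-responsive hormone of liver and fat, was not above background. It read 3.68 and 3.30 in KO, against 3.66 and 3.53 in wild type of set 1, and 4.08 and 3.83 in KO, against 4.06 and 3.86 in wild type of set 2. The groups overlapped in both sets, and the difference with the set as a block was -0.05 (SE 0.11, 95% interval -0.32 to 0.21, limma adjusted p = 0.999). Albumin, the main secreted protein of liver, ran from 10.03 to 19.23 in set 1 and from 4.79 to 5.23 in set 2, and Fgf21 stayed under the line in both.

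Bmp8b was under the line on all 8 arrays, and within set 2 it was highest in KO replicate 4. It read 3.27 and 3.27 in KO, against 3.35 and 3.26 in wild type of set 1, and 4.05 and 4.75 in KO, against 4.10 and 3.93 in wild type of set 2. The value of 4.75 lies just under the line of 4.87 on that array. The difference with the set as a block was 0.18 (SE 0.16, limma adjusted p = 0.999), and without KO replicate 4 it was -0.01. The neighbouring paralog Bmp8a read 2.96 to 3.54, and probes cannot separate such near copies with certainty. The gene Oxct2b overlaps Bmp8b in the annotation used for names.

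Il6 and Slit2 were at background on every array. Il6 read 3.21 and 3.21 in KO, against 2.99 and 3.06 in wild type of set 1, and 3.47 and 3.70 in KO, against 3.50 and 3.66 in wild type of set 2. The Il6 groups parted in set 1, with KO higher, as they did in 18.9% of all genes (38.4% parted there either way). Its difference with the set as a block was 0.09 (SE 0.09, limma adjusted p = 0.999). Slit2 read 3.37 and 3.35 in KO, against 3.36 and 3.30 in wild type of set 1, and 4.46 and 4.43 in KO, against 4.37 and 4.33 in wild type of set 2. The Slit2 groups parted in set 2, with KO higher by 0.10 (SE 0.09), as KO was higher and parted there in 24% of all genes. Its difference with the set as a block was 0.06 (SE 0.06, limma adjusted p = 0.999). Since both lie under the olfactory receptor line, these small differences are not read as changes of the transcripts. An annotated long noncoding RNA, A230098N10Rik, overlaps Il6, and the strand that the probe set reads is not stated.

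Over the 6 measured factors, limma with the set as a block called 0 at an adjusted p under 0.05, and 0 at an unadjusted p under 0.05. Of all 30142 genes it called 0%, and 4.81% had an unadjusted p under 0.05, with KO lower in 2.34%. Ordinary least squares also called 0 of the 6. Differences were above 0 for 3 factors and below 0 for 3, with a median of 0.0038 beside 0.0073 over all genes. Within set 1 limma called 0 of 6 (0 at an unadjusted p under 0.05, where all genes gave 7.76%), and within set 2 it called 0 of 6, beside 0.00332% of all genes (0 at an unadjusted p under 0.05, where all genes gave 15.1%, with KO lower in 6.16%). For the difference between the sets limma also called 0 of 6 (0 at an unadjusted p under 0.05, where all genes gave 15%, and 5.45% with a lower difference in set 2). The genotypes did not part in the same direction in both sets for any of the 6, as they did for 5.28% of all genes.

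**Figure D4:**
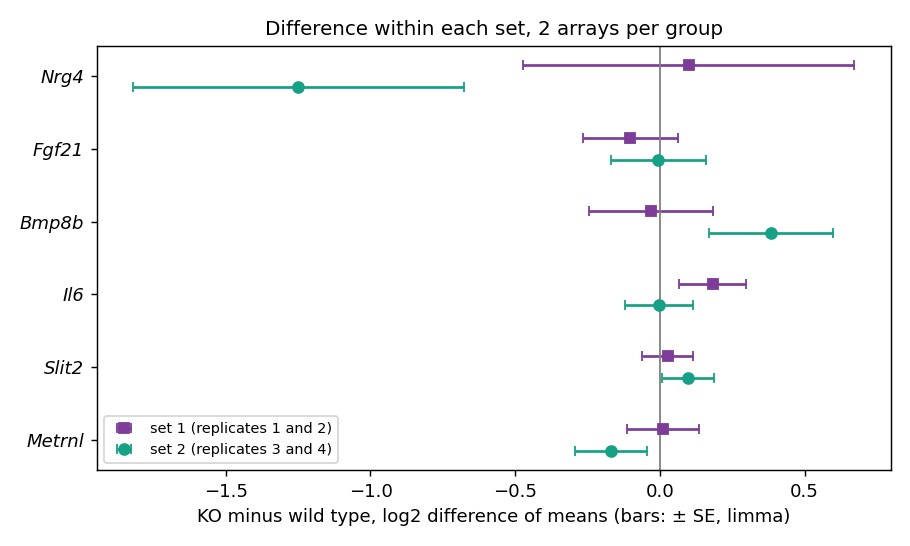
Difference of KO minus wild type in mean log2 expression for each factor, within set 1 (squares) and within set 2 (circles), 2 arrays per group; bars are 1 SE from limma. The largest difference in size is that of Nrg4 in set 2, -1.25 with an SE of 0.57, and the others lie between -0.17 and 0.38.

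The receptors and partners of the factors came from 8 lists of 175 measured genes, of which 118 were above background in both sets. Limma with the set as a block called 0 of the 175, and 8 (4.57%) had an unadjusted p under 0.05, beside 4.81% of all genes. Within set 2, 39 (22.3%) had an unadjusted p under 0.05, beside 15.1% of all genes, and 0 passed after adjustment. Within set 1 the count was 15 (8.57%), beside 7.76%, and 0 passed. The lists are richer in genes above background than the whole table, where 50.9% were above it in both sets. Among the 17606 genes above background in at least 1 set, 3401 had such a limma p within set 2 and 1823 within set 1. The shares of all genes are therefore a low yardstick for these lists.

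In the ErbB list, which holds the receptors, ligands and proteases around Nrg4, 0 of 16 genes passed and 9 were above background in both sets. Erbb4, the receptor that binds Nrg4, read 5.85 and 6.23 in KO, against 5.62 and 5.71 in wild type of set 1, and 7.78 and 6.76 in KO, against 7.86 and 7.90 in wild type of set 2. It was higher in KO in set 1 and lower in set 2, with KO replicate 4 lowest in set 2 as for Nrg4. Egfr, the founding receptor of the family, read 6.73 and 6.34 in KO, against 5.96 and 5.66 in wild type of set 1, and 7.35 and 8.01 in KO, against 6.57 and 7.13 in wild type of set 2. Its difference of 0.78 (SE 0.19, limma adjusted p = 0.986) went one way in both sets, as did that of Errfi1, a feedback inhibitor of ErbB kinases, at 1.05 (SE 0.26, limma adjusted p = 0.986). Both genes were named for a small p in this list, which favours parting in both sets. The 2.82% of all genes in which KO was higher and parted in both sets is therefore no yardstick for them. Neither gene passed.

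In the FGF21 list 0 of 14 genes passed. Klb, the co-receptor that makes FGFR1 responsive to FGF21, was well above background and read 11.67 and 12.20 in KO, against 13.19 and 13.04 in wild type of set 1. In set 2 it read 13.12 and 12.70 in KO, against 12.80 and 12.98 in wild type. The difference was -1.17 (SE 0.21, limma adjusted p = 0.299) in set 1 and 0.02 in set 2, and the difference between the sets had a limma adjusted p = 0.131. KO was lower and parted in set 1 in 19.5% of all genes. Liver markers were higher in the KO arrays of set 1 (means of 11.62 and 8.18) than in wild type (7.84 and 5.78), and their part in the Klb difference was not tested. Fgfr1 differed by -0.00 (SE 0.15), with overlapping groups in both sets. Fgfr2 differed by 0.98 (SE 0.31) and Ppara, a fatty acid sensor known to induce Fgf21, by -0.81 (SE 0.38), both with a limma adjusted p = 0.986.

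In the BMP list 0 of 32 genes passed, and 20 were above background in both sets. Acvr1c, the receptor ALK7 of adipocytes, read 11.72 and 12.17 in KO, against 10.77 and 11.03 in wild type of set 1, and 11.80 and 11.04 in KO, against 12.84 and 12.74 in wild type of set 2. The difference was 1.04 in set 1 and -1.37 in set 2, and the difference between the sets missed the threshold (limma adjusted p = 0.0571). KO was higher in set 1 and lower in set 2, parted in both, in 5.31% of all genes. The type II receptor Bmpr2 followed the same order with smaller sizes, 0.28 and -0.38, and Bmpr1a, a type I receptor, differed by -0.22 (SE 0.13). The inhibitory Smad6 read 4.74 and 4.67 in KO, against 5.15 and 4.86 in wild type of set 1, and 6.58 and 6.45 in KO, against 7.19 and 6.70 in wild type of set 2. Its difference was -0.36 (SE 0.12, limma adjusted p = 0.986), with KO lower and parted in both sets as in 2.46% of all genes. Smad6 was named for a small p in this list, so that share is no yardstick for it. Fst, an activin and BMP antagonist, differed by 1.92 within set 2 and -0.04 within set 1.

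The receptor of GDF15, Gfral, is known to be confined to the hindbrain and read 3.34 to 4.00, at background. In this list of 19 measured genes, Gfral included and mostly of the integrated stress response that is known to induce Gdf15, 0 passed. Atf3, a stress-induced transcription factor, read 4.28 and 4.46 in KO, against 4.74 and 4.55 in wild type of set 1, and 7.25 and 8.36 in KO, against 5.49 and 5.84 in wild type of set 2. Its difference within set 2 was 2.14 (limma adjusted p = 0.0884) and within set 1 -0.28. Cth, which makes cysteine, differed by 1.19 (SE 0.44), and Asns, asparagine synthetase, by -0.27 (SE 0.14), both with a limma adjusted p = 0.986. In set 1 Cth read 8.29 and 6.36 in KO, against 6.23 and 5.90 in wild type. In set 2 it read 6.21 and 7.60 in KO, against 5.85 and 5.72 in wild type. The liver marker mean was also highest in KO replicate 1 (11.62), and the part of liver markers in the Cth values was not tested.

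In the IL-6 list 0 of 19 genes passed. Il6ra, the ligand-binding receptor, read 8.19 and 7.67 in KO, against 7.78 and 7.82 in wild type of set 1, and 9.09 and 10.21 in KO, against 8.66 and 8.86 in wild type of set 2. Il6st, the shared signal transducer gp130, differed by -0.31 in set 1 and 0.05 in set 2. Lifr, the receptor of leukaemia inhibitory factor, differed by 0.80 (SE 0.35), and Osmr, that of oncostatin M, by 0.46 (SE 0.26), both with differences above 0 in each set.

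In the SLIT and Roundabout list 0 of 15 genes passed. The receptors Robo1 and Robo2 were at background (at most 4.39 and 3.79), whereas Robo4, the Roundabout receptor of endothelial cells, read 6.00 and 6.12 in KO, against 5.56 and 5.79 in wild type of set 1. In set 2 it read 7.48 and 7.51 in KO, against 7.26 and 7.46 in wild type, and its difference was 0.26 (SE 0.10, limma adjusted p = 0.986). Slit3, a paralog of Slit2, was above background at 5.12 to 7.64 and differed by 0.03 (SE 0.15). Metrn, the paralog of Metrnl, was not above background, and Kit, a reported receptor of meteorin-like, differed by -0.39 (SE 0.22).

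**Figure D5:**
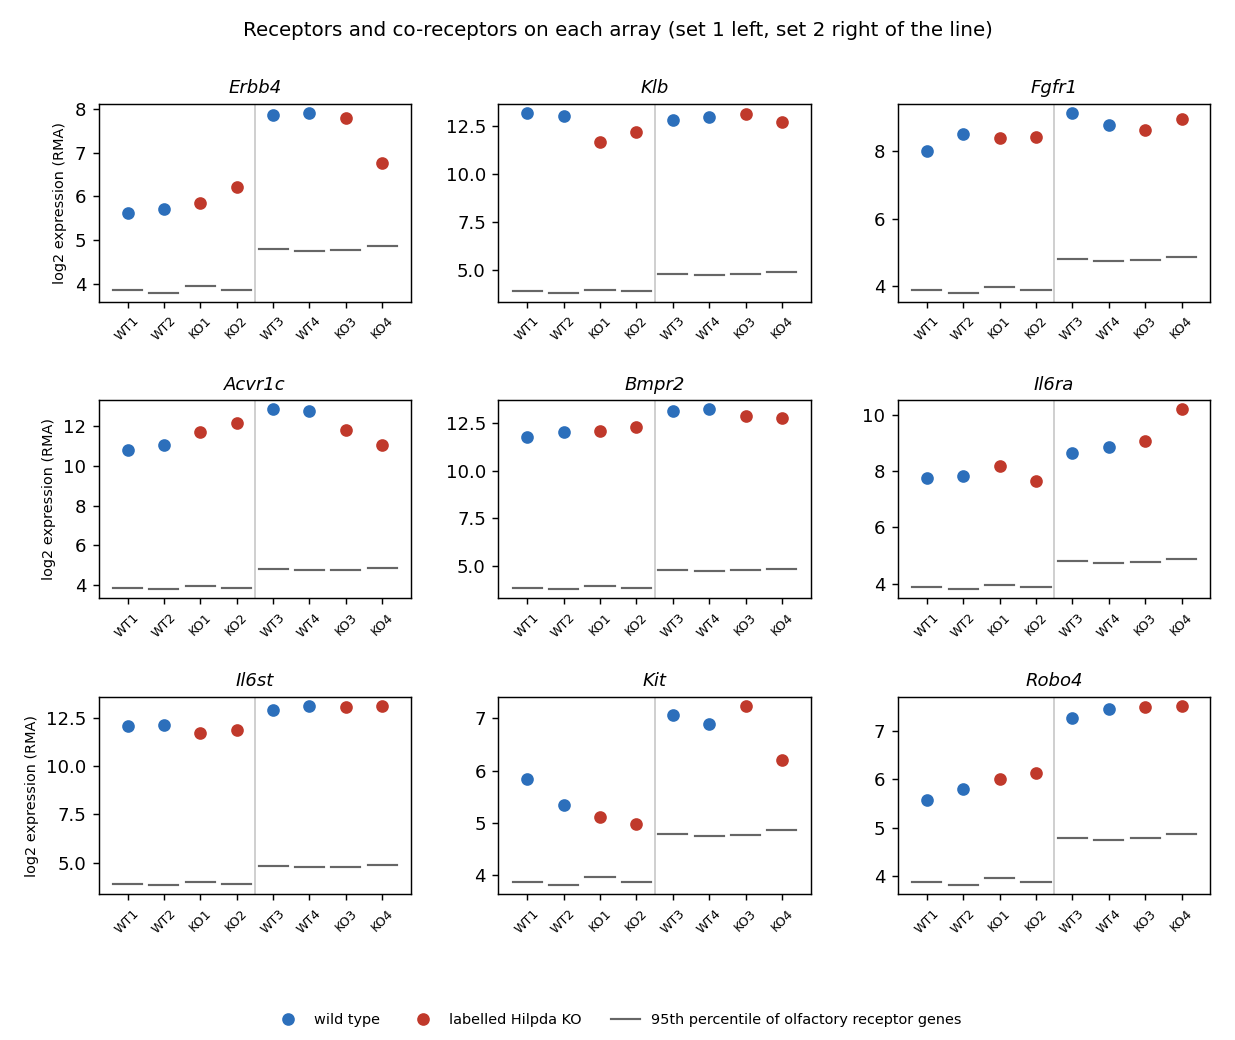
Log2 expression of 9 receptors and co-receptors on each array, with wild type in blue, arrays labelled Hilpda KO in red and the olfactory receptor line in grey. Klb is lower in KO in set 1, and Acvr1c is higher in KO in set 1 and lower in set 2.

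Among 57 measured genes of other secreted factors, 44 were above background in both sets and 0 passed with the set as a block. The median difference was -0.04, beside 0.01 over all genes. S100b, a protein that brown adipocytes release to attract nerves, read 6.45 and 5.93 in KO, against 6.64 and 6.69 in wild type of set 1, and 8.13 and 8.95 in KO, against 9.67 and 9.07 in wild type of set 2. Its difference was -0.66 (SE 0.23), and that of Wnt5a, a noncanonical Wnt ligand, was -0.26 (SE 0.10), both with a limma adjusted p = 0.986. S100b was also listed among nerve and Schwann cell markers, of which 7 of 9 measured differed below 0 and 2 above. S100b itself is among the 9, of which 4 were above background in both sets and 4 in neither. Their median difference was -0.07, beside 0.01 over all genes. The share of all genes below 0 was not counted, so these signs are not read as a result about such cells. The part of such cells in the S100b values was not tested. Lep, which encodes leptin, read 4.40 and 4.57 in KO, against 6.26 and 5.26 in wild type of set 2, and was at background in set 1. Its KO values of set 2 lay under the olfactory receptor lines of 4.78 and 4.87. The difference of -1.27 there had a limma adjusted p = 0.131, and KO was lower and parted in set 2 in 19.1% of all genes. Lep was named for a small p over both sets, so that share is a low yardstick for it. Angptl4, an inhibitor of lipoprotein lipase, differed by 0.26 (SE 0.14).

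The difference between the sets passed for 1 of the 175 genes, beside 0.471% of all genes. This was Pltp, the phospholipid transfer protein that brown fat releases into plasma, named after its values were seen. Pltp read 10.44 and 10.55 in KO, against 9.65 and 9.72 in wild type of set 1, and 11.83 and 11.92 in KO, against 13.00 and 12.82 in wild type of set 2. The KO minus wild type difference was 0.81 in set 1 and -1.03 in set 2, and the difference between the sets of -1.84 (SE 0.15) had a limma adjusted p = 0.0305. Leaving out each of the 8 arrays in turn gave differences of -1.93 to -1.75 and no call (limma adjusted p = 0.0545 to 0.157), and the call was also lost with a trend in the variances (-1.84, limma adjusted p = 0.0532). Neither within-set difference passed on its own (limma adjusted p = 0.249 and 0.0606).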

How the data were processed

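The deposited table holds log2 values from Affymetrix arrays of brown fat RNA, 1 per mouse, which the authors made with RMA (Expression Console, core exons), per the labels. Neither versions nor an annotation are stated. Of 72688 probe sets, 6732 were controls, 30604 had 1 gene symbol, 2146 several and 33206 none. Symbols were updated by gene identifier (22818 matched) from a RefSeq table of assembly GRCm38.p6. Of a gene's probe sets the brightest on average was kept, which left 30142 genes.

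Since the distributions differed, the 2 sets were taken as normalized apart. Limma 3.58.1 (R 4.3.3) was fitted to every gene with set and genotype as terms, and by genotype within each set, with Benjamini-Hochberg adjustment over the whole table and a threshold of 0.05. The number of arrays limits the precision. A gene was above background in a set when its mean passed the 95th percentile of olfactory receptor genes. Tested on simulated data of 30142 genes, that block model recovered 69 of 100 genes changed by 1 and 97 of 100 changed by 2 on the log2 scale, with 7 false calls. No set test was run. Alternatives covered the block, scaling, background filter, variance model, unnamed probe sets and leaving out each array.

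The members, lists and tests were chosen with earlier results of these data known. Named genes were the members, listed receptors and paralogs, the genes of smallest p in each list, markers and the genes nearest in pattern. Arrays with the same replicate number deviated together (correlations of 0.702, 0.471, 0.478 and 0.61), which meets the rule for pairing, but for replicates 2 and 3 an array of another number correlated more highly (0.616 and 0.629). Within the sets the correlation was low, 0.108 in set 1 and -0.0916 in set 2, with 1 value per set since each group has 2 arrays there. The correlations over all arrays are therefore not read as a pairing of mice.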

Additional observations from a re-analysis of the deposited data

Results flagged for a closer look

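In 2 of 124 groups of 4 arrays tested, 1 array lay far from the 3 others; chance flags about 5% of such groups. These groups span both sets, whose values are not on a common level, and only 2 arrays of a group share a set. The rate of 5% is therefore no yardstick for them. Errfi1 read 9.15 in wild type replicate 4, against 8.49 in replicate 3 of its set and 8.42 in both wild type arrays of set 1. Lifr read 11.66 in wild type replicate 4, against 10.92 in replicate 3 and 10.88 and 10.81 in set 1. The KO minus wild type difference of Pltp differed between the sets by -1.84 on the log2 scale (limma adjusted p = 0.0305). It was -1.83 with each array centred on its median and -2.07 after quantile normalization over all arrays. The part of marker genes in these values was not tested.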

How the results depend on the processing

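For each factor, alternatives were followed only for the difference over both sets. None of the 6 factors passed there after adjustment, and the smallest limma adjusted p was 0.843, for Nrg4 without wild type replicate 2. Within set 2 the main fit gave Nrg4 a limma adjusted p = 0.368. Blocking on the replicate number left the Nrg4 difference at -0.57 (SE 0.42), and limma called 0 genes over the table (1207 at an unadjusted p under 0.05). Leaving out 1 array gave Nrg4 differences of -0.95 to -0.10, Bmp8b of -0.0056 to 0.27, Fgf21 of -0.12 to 0.033, Il6 of 0.06 to 0.15, Slit2 of 0.05 to 0.08 and Metrnl of -0.14 to -0.01. Over all genes, leaving out 1 array called 0 to 1 with the set as a block, 0 to 14 within set 1, 0 to 10 within set 2 and 0 to 23 for the difference between the sets, against 142 with all arrays. That difference called 82 genes after median centring, 313 among genes above background and 4 with trend. Within set 2 the count was 1, and 0 after quantile normalization, 12 among genes above background and 0 with that set fitted alone. The filter on low values removed Fgf21, Bmp8b, Il6 and Slit2. The signs of Bmp8b (without KO replicate 4) and Fgf21 (without KO replicate 2) turned, and the cause was not tested. With unnamed probe sets included the block fit called 1. A second probe set could not be tried, since each factor has 1. Signal at background limits Fgf21, Bmp8b, Il6 and Slit2: no change was detectable there.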
